A study of Homo sapiens with 12 samples.

Results

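A set of 144 genes stood higher with both *PD-L1* siRNAs than with the control siRNA in U251 cells, whether or not the cells had received IFNγ. The 144 were selected on the deposited CPM values, that is, read counts scaled to library size (CPM) by the authors. In unstimulated cells, the lowest of the 4 *PD-L1* siRNA libraries had to reach 1.3 times the highest control library. The same was required after IFNγ, together with a mean of at least 2 CPM over the 12 libraries. Of 45416 genes in the table, 13068 had that mean. The 144 are those that met the whole rule, after 10 further genes were left out by name (*PSAT1*, *SEMA6B*, *CBX1*, *MAPRE1*, *NEK7* and those whose names start with COL or LINC). The values of both *PD-L1* siRNAs against the control siRNA therefore chose the genes, and they are given as a description with no test.

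U251 is a long-established cell line from a human glioblastoma. It received a control siRNA, siNC, or either of 2 siRNAs against *PD-L1* (*CD274*), siPDL1-1 and siPDL1-2. After 48 h, cells were left unstimulated (C) or received IFNγ at 100 U/ml for 24 h (IFN). This gave 6 groups of 2 libraries, called siNC-C, siPDL1-1-C, siPDL1-2-C, siNC-IFN, siPDL1-1-IFN and siPDL1-2-IFN. The labels give the genotype as wild type throughout and describe no untransfected cells, so an effect of siNC and an effect shared by both *PD-L1* siRNAs cannot be told apart. All comparisons with siNC within 1 IFNγ state share the same 2 siNC libraries. Per the study's methods, the libraries came from a pair of independent experiments, and the 2 libraries of a group are taken as its replicates.

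An siRNA is a short double-stranded RNA whose guide strand is loaded into Argonaute and directs cleavage of an mRNA that it matches. A guide can also lower transcripts that match only its seed, much as a microRNA does, and double-stranded RNA can be sensed by innate immune receptors. IFNγ binds its own receptor, activates the receptor-bound JAK kinases, and induces genes of antigen presentation, chemokines and *PD-L1* itself.

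Between 17101069 and 55657393 reads per library lay on genes, so 1 read was worth between 0.0187 and 0.0586 CPM. *CD274* had 4.60 and 4.91 CPM in siNC-C, 2.67 and 2.73 in siPDL1-1-C, and 3.57 and 3.45 in siPDL1-2-C. After IFNγ it had 71.2 and 76.0 CPM with siNC, 60.9 and 66.7 with siPDL1-1, and 37.5 and 35.0 with siPDL1-2. Both siRNAs thus stood below siNC in both states, by a smaller margin for siPDL1-1 after IFNγ than for siPDL1-2. The summed CPM of 10 glioma or astrocyte markers ranged from 4463 to 4623 in siNC libraries and from 4112 to 5030 in *PD-L1* siRNA libraries, and 1 of the 10, *AQP4*, stayed under 1 CPM everywhere. The 3 T cell markers summed to at most 0.0240 CPM. Among 49 tested G2/M-phase genes, 8 were called lower and 1 higher in the mean of the *PD-L1* siRNAs against siNC in unstimulated cells, and 23 were called lower after IFNγ, which does not show a change with each siRNA. The part of this in the values of the 144 genes was not tested.

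The size of the difference from siNC was moderate for most of the 144 genes. The mean of the 4 *PD-L1* siRNA libraries over that of the siNC libraries had a median of 1.78 in unstimulated cells and 1.74 after IFNγ, and 40 genes reached a ratio of 2 in the first state and 36 in the second. The ratio was larger in unstimulated cells for 78 of the 144. The margin, meaning the lowest *PD-L1* siRNA library over the highest siNC library in the weaker of both states, ranged from 1.301 to 2.17 with a median of 1.41. With the fit across all 17982 genes tested, 120 of the 144 were called higher in the mean of both siRNAs against siNC in unstimulated cells, beside 2.37% of all tested genes. This contrast is an average, which a gene raised by 1 siRNA alone can pass, and calls against siNC below refer to it. After IFNγ, 112 were called higher, beside 2.42%. No member was called lower in either state, beside 0.784% and 1.12% of all tested genes. Since the rule used this contrast, nothing is read from these counts. A gene was called at FDR < 0.01 and a fold change above 1.5 in limma on log2 of CPM plus 1.

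**Figure D1:**
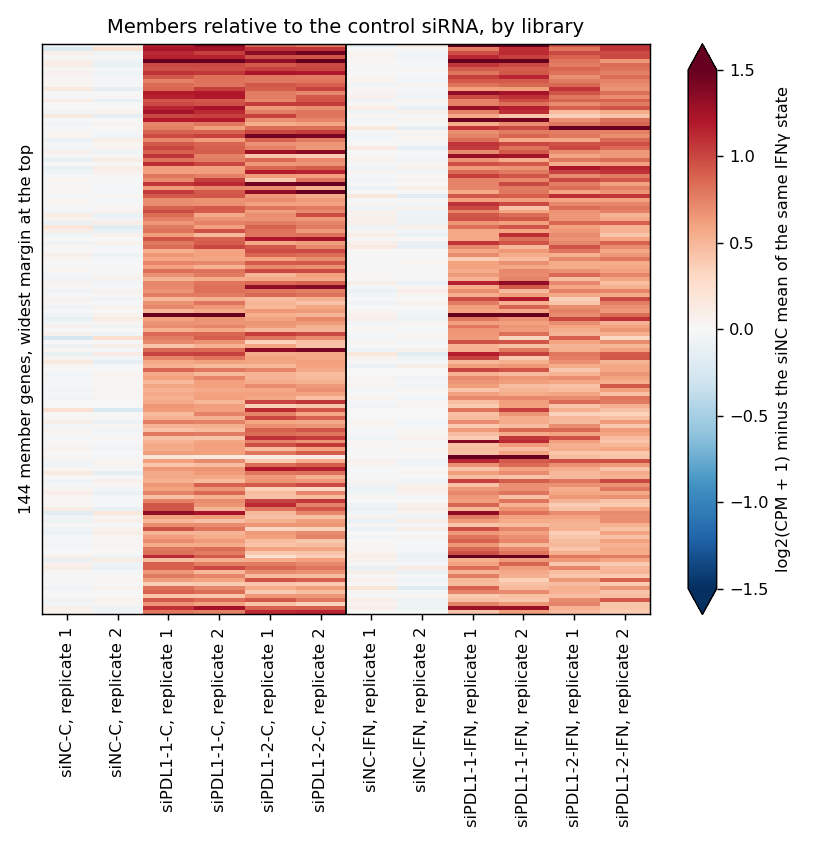
Each row is 1 of the 144 genes, ordered by margin, and each column is 1 library; colour gives log2(CPM + 1) minus the siNC mean of the same IFNγ state. All 8 *PD-L1* siRNA columns are above 0 for every gene, which the rule required, and the colour of many rows differs between siPDL1-1 and siPDL1-2.

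The widest margins belonged to genes of quite different roles. *ADAMTS14*, a metalloprotease that trims procollagen, had 1.08 and 1.24 CPM in siNC-C, 3.86 and 4.47 in siPDL1-1-C, and 2.92 and 2.69 in siPDL1-2-C. After IFNγ it had 1.31 and 1.78 CPM with siNC, 6.55 and 6.16 with siPDL1-1, and 3.93 and 4.30 with siPDL1-2. A gap from the siNC range in each state was required by the rule, and the ratios of the means were 3.01 and 3.38. *CHGB*, which encodes the secretory granule protein chromogranin B, had between 1.22 and 1.97 CPM in the 4 siNC libraries and between 3.75 and 5.11 in the 8 others. Its values with both *PD-L1* siRNAs lay close together in each state, with a difference between siRNAs of 0.16 ± 0.15 (SE, log2) in unstimulated cells (FDR = 0.44).

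*GABRP*, a GABA-A receptor subunit, had the widest margin of all in unstimulated cells, 3.02. It had 2.20 and 1.90 CPM in siNC-C, 8.90 and 8.92 in siPDL1-1-C, and 6.66 and 8.03 in siPDL1-2-C. After IFNγ the values were 2.15 and 2.05 CPM with siNC, 8.06 and 8.28 with siPDL1-1, and 4.40 and 3.87 with siPDL1-2. IFNγ lowered *GABRP* with siPDL1-2, by 0.70 ± 0.11 (SE, log2; FDR = 0.00022), a call that was lost without siPDL1-2-C replicate 2. The changes with siNC and siPDL1-1 were 0.03 (FDR = 0.88) and -0.11 (FDR = 0.47). The IFNγ effect with siPDL1-1 minus that with siPDL1-2 was 0.59 (log2, FDR = 0.013), which was not called.

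Several wide-margin genes encode enzymes and transporters of metabolism. *PGAM1*, a glycolytic mutase, had 344 and 353 CPM in siNC-C and between 671 and 783 in the other unstimulated libraries. After IFNγ it had 418 and 398 CPM with siNC and between 754 and 892 with the *PD-L1* siRNAs. Its reads may be shared with near-identical processed copies, so its level is uncertain. *ENOPH1*, of the methionine salvage pathway, had 16.7 and 15.01 CPM in siNC-C and between 33.7 and 44.9 in the *PD-L1* siRNA libraries of the same state. *SLC38A3*, a glutamine transporter, had 15.4 and 13.4 CPM in siNC-C against 28.1 to 29.6 with the *PD-L1* siRNAs, and 9.14 and 8.92 CPM in siNC-IFN against 16.2 to 20.03. IFNγ lowered *SLC38A3* under siNC by 0.62 ± 0.07 (SE, log2; FDR = 1.1e-05), just past the fold change limit, which it missed without siNC-C replicate 1, and the ratios to siNC were 2.02 and 1.99 in the 2 states. *GPD1L*, related to glycerol-3-phosphate dehydrogenase, and *TK2*, the mitochondrial thymidine kinase, had ratios of 2.27 and 1.77 in unstimulated cells and 1.81 and 1.85 after IFNγ.

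The other wide-margin genes were *PEG10*, an imprinted gene derived from a retrotransposon, *INKA2*, an inhibitor of PAK kinases, *ERMAP*, a butyrophilin-like membrane protein, and *PRUNE2*. *PEG10* had 114 and 111 CPM in siNC-C and between 220 and 230 with the *PD-L1* siRNAs, and 87.6 and 90.9 CPM in siNC-IFN against 158 to 170. The libraries of each group were close together for this gene. The lack of overlap between siNC and either siRNA was required of every member by the rule. *INKA2* lies over *RAP1A*, *ERMAP* over *SVBP* and *PRUNE2* over *GCNT1* on the opposite strand, each with more reads than the member. Reads were counted on both strands, so the split between such genes is uncertain. In all, 52 of the 144 overlapped another gene of at least 0.5 CPM and 27 a gene with a higher mean CPM.

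**Figure D2:**
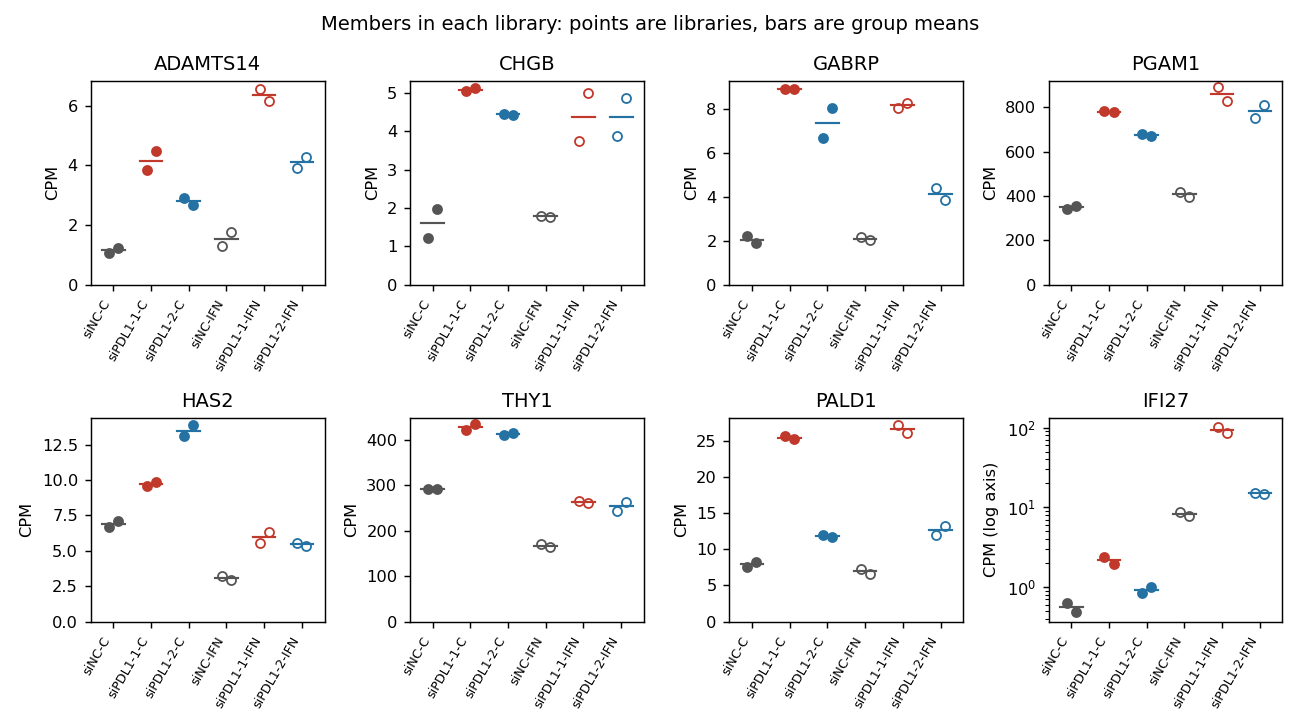
CPM of 8 of the genes in each library; points are libraries (filled, unstimulated; open, after IFNγ), horizontal bars are group means, and the *IFI27* axis is logarithmic. *HAS2* and *THY1* are lower after IFNγ under all 3 siRNAs, *PALD1* is about as high with siPDL1-1 in both states, and *IFI27* reaches 86.4 and 102 CPM only with siPDL1-1 and IFNγ.

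By reads, the most abundant of the 144 were *MT-CYB*, *PGAM1*, *CALU*, *THY1*, *PXDN*, *MORF4L1*, *PLS3* and *MAP1B*. *MT-CYB*, which encodes cytochrome b of mitochondrial complex III, had 885 to 1085 CPM in the 4 siNC libraries and 1304 to 1744 in the 8 others. The share of all reads on mitochondrial genes was also higher, at 5.44% to 6.63% against 4.85% to 5.17%, and its part in the *MT-CYB* value was not tested. *CALU*, an endoplasmic reticulum calcium-binding protein, had 382 and 364 CPM in siNC-C against 689 to 772, and 385 and 404 in siNC-IFN against 642 to 674. *PXDN*, the peroxidase that cross-links collagen IV, had 189 and 191 CPM in siNC-C, 433 and 437 in siPDL1-1-C, and 325 and 313 in siPDL1-2-C. The siPDL1-1 libraries were thus the highest for *PXDN*, by 0.45 ± 0.05 (SE, log2) over siPDL1-2 (FDR = 7.4e-06), which is below the fold change of 1.5 that a call required. *MORF4L1*, a chromatin reader of histone acetyltransferase complexes, *PLS3*, an actin-bundling protein, and *MAP1B*, a microtubule-associated protein, had ratios to siNC of 1.88, 1.75 and 1.52 in unstimulated cells and 1.56, 1.49 and 1.47 after IFNγ. *THY1* had 1.44 and 1.55.

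Just inside the limit, the margins were 1.303 for *CYP26B1*, which breaks down retinoic acid, 1.302 for *ATP1B2* and 1.301 for *SGCB*, a sarcoglycan. Just outside it, *C2* had 1.299, *ZDHHC9* 1.295 and *TGOLN2* 1.295.

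Members were counted in the pathway lists used here. Of 27 lists, 11 held at least 1 member and 16 held none, and 16 of the 144 genes were on a list. The share of all tested genes on any list was not counted, so these counts are not read as few or many. *ALDH1L2*, a mitochondrial folate enzyme, and *VLDLR*, a lipoprotein receptor, were the members among 41 tested ATF4 and amino acid stress genes, of which 1 was called higher in unstimulated cells and 3 after IFNγ, with medians of -0.11 and 0.14 (log2) beside 0.03 and -0.0040 over all tested genes. *TCF7*, a Wnt-responsive transcription factor, and *SFRP1*, a secreted Wnt antagonist, were those among 45 Wnt pathway genes, of which 3 and 6 were called higher, with medians of 0.12 and 0.15. *MATN2* and *LOXL4*, a matrix adaptor and a lysyl oxidase, were those among 71 matrix genes, of which 7 were called higher and 2 lower in unstimulated cells and 11 higher and 1 lower after IFNγ, with medians of 0.27 and 0.20. *CELSR1* and *NTN1* were on the axon guidance list, and *ERMAP* and the long noncoding RNA *HHLA3* were on the immune checkpoint list. *APAF1*, the apoptosome core and a p53 target, *PGAM1*, *SIDT2* and *SC5D* completed the members on a list together with *XAF1* and *IFI27*. No member was on the lists of IFNγ-response, NF-kB-target, S-phase or G2/M-phase genes.

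*SFRP1* had 37.7 and 38.1 CPM in siNC-C against 55.0 to 62.7 with the *PD-L1* siRNAs, and 51.8 and 49.6 in siNC-IFN against 74.7 to 77.6. The siNC cells after IFNγ thus stayed below the unstimulated *PD-L1* siRNA cells. *TCF7* had 5.24 and 4.38 CPM in siNC-C against 8.55 to 10.2, and 3.20 and 3.55 in siNC-IFN against 6.30 to 7.62, and it lies over *SKP1* on the opposite strand, which has more reads. *NTN1*, which encodes netrin-1, had 5.19 and 5.67 CPM in siNC-C against 8.91 to 11.7, and 7.43 and 6.66 in siNC-IFN against 11.1 to 12.6.

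*VLDLR* had 90.3 and 88.4 CPM in siNC-C against 129 to 139, and 86.0 and 86.9 in siNC-IFN against 116 to 124. *ALDH1L2* had 5.14 and 4.73 CPM in siNC-C, 6.96 and 7.27 in siPDL1-1-C, and 9.97 and 10.4 in siPDL1-2-C. After IFNγ it had 3.60 and 3.82 CPM with siNC, and the siPDL1-1 libraries, at 6.36 and 7.57, and the siPDL1-2 libraries, at 7.56 and 6.35, overlapped. *APAF1* had 19.4 and 20.4 CPM in siNC-C against 31.5 to 32.3, and 21.9 and 23.2 in siNC-IFN against 32.9 to 37.2. *SIDT2*, a lysosomal membrane protein that takes up RNA, was the member among 17 RNA interference genes, with 42.0 and 41.8 CPM in siNC-C, 72.5 and 70.1 in siPDL1-1-C, and 58.6 and 58.0 in siPDL1-2-C. After IFNγ it had 46.6 and 45.6 CPM with siNC, 79.4 and 67.0 with siPDL1-1, and 61.9 and 61.1 with siPDL1-2. It was called higher in unstimulated cells and stayed below the fold change of a call after IFNγ, and no other gene of that list was called higher in either state.

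Members were also counted in families of genes with a common name stem. The set held 0.801% of all tested genes. It held 4 of 53 metalloprotease genes, *ADAMTS14*, *MMP14*, *MMP15* and *MMP24*. In that family 6 genes were called higher in unstimulated cells and 8 after IFNγ, none lower, and the medians were 0.24 and 0.18 (log2). It held 3 of 49 protocadherins, where *PCDHGC3* and *PCDHGA2* share exons with the other genes of their cluster and are uncertain, and 2 of 38 integrins and laminins, *ITGA7* and *ITGA9*. It held 7 of 201 genes named TMEM, 4 of 274 solute carriers, 0 of 516 zinc finger genes, 0 of 97 ribosomal protein genes and 2 of 2376 clone-named transcripts. The family sizes may include tested genes under the 2 CPM that the rule required, so low counts are not read as a trait of the set. Of 33 semaphorins and plexins it held 0, but *SEMA6B* met the rule and was left out by name. No enrichment was tested.

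*KCNN4*, a calcium-activated potassium channel, had 34.8 and 38.4 CPM in siNC-C against 51.4 to 59.0 with the *PD-L1* siRNAs, and 38.0 and 35.5 in siNC-IFN against 64.6 to 76.1. The ratios to siNC were 1.51 and 1.93, and the rule itself required the *PD-L1* siRNA libraries to be apart from siNC. *MMP14*, the membrane-anchored collagenase MT1-MMP, had 142 and 143 CPM in siNC-C, 254 and 245 in siPDL1-1-C, and 189 and 192 in siPDL1-2-C. As for *PXDN*, siPDL1-1 gave the higher values, by 0.39 (log2, FDR = 7.2e-05), again below the fold change a call required.

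The response to IFNγ was tested within each siRNA. The rule used it only in part, through the mean of at least 2 CPM over all libraries, which a gene can reach by being high in 1 IFNγ state. With siNC, 16 of the 144 genes rose, beside 6.67% of all tested genes, and 14 fell, beside 1.45%. With siPDL1-1, 14 rose, beside 5.58%, and 13 fell, beside 1.3%. With siPDL1-2, 11 rose, beside 3.62%, and 15 fell, beside 1.65%. As shares, 11.1%, 9.72% and 7.64% of the 144 rose with siNC, siPDL1-1 and siPDL1-2, and 9.72%, 9.03% and 10.4% fell. Among the tested genes with the same mean of at least 2 CPM, the shares that rose were 8.31%, 6.70% and 4.34%, and those that fell were 1.69%, 1.40% and 1.88%. The mean was under 2 CPM in 1 of the states for 9 members, among them *LRRN2*, *XAF1* and *IFI27* before and *PPP1R1B* and *FMO2* after IFNγ. Of the other 135 members, 13, 11 and 8 rose and 12, 12 and 13 fell. Among all tested genes with 2 CPM in both states, 7.70%, 6.12% and 3.79% rose and 1.57%, 1.25% and 1.73% fell. A total of 8 members fell under all 3 siRNAs, beside 0.361% of all tested genes, and 8 rose under all 3, beside 2.43%. *PPP1R1B* among those that fell, and *LRRN2*, *XAF1* and *IFI27* among those that rose, reached the 2 CPM mean only through 1 state. These joint counts were not redone without them. For 104 of the 144, no call was made under any siRNA, which also held for 88.3% of all tested genes. The median IFNγ effect over the 144 was -0.04, -0.05 and -0.11 (log2) with siNC, siPDL1-1 and siPDL1-2, beside 0.0012, -0.02 and -0.01 over all tested genes.

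Genes that fell under all 3 siRNAs included *PPP1R1B*, *HAS2*, *MYORG*, *ATP1B2*, *THY1*, *MMP15* and *MATN2*. *THY1*, the surface glycoprotein CD90, had 291 and 292 CPM in siNC-C and 170 and 163 in siNC-IFN. With the *PD-L1* siRNAs it had 410 to 435 CPM before and 243 to 265 after IFNγ. IFNγ lowered *THY1*, with log2 fold changes of -0.80, -0.70 and -0.70 (SE 0.04 each) and FDR values of 8.7e-10, 4.1e-09 and 5.9e-09 with siNC, siPDL1-1 and siPDL1-2. The *PD-L1* siRNA libraries after IFNγ were still below the unstimulated siNC libraries.

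*ATP1B2*, the beta2 subunit of the sodium pump and an adhesion molecule of glia, had IFNγ effects of -0.81, -0.68 and -1.23 (log2) with siNC, siPDL1-1 and siPDL1-2. *HAS2*, a hyaluronan synthase, had 6.71 and 7.11 CPM in siNC-C and 3.20 and 2.97 in siNC-IFN, 9.57 and 9.89 before and 5.56 and 6.35 after IFNγ with siPDL1-1, and 13.1 and 13.9 before and 5.57 and 5.35 after with siPDL1-2. Its IFNγ effects were -0.95, -0.63 and -1.16 (log2). *PPP1R1B*, the phosphatase inhibitor DARPP-32, had -0.78, -1.29 and -1.297. *MYORG*, a glycosidase of astrocytes, had -0.87, -0.75 and -1.06, and *MMP15*, another membrane-type metalloprotease, had -0.80, -0.73 and -0.65. *MATN2* had -0.60, -0.71 and -0.67 and lies over *RPL30*, which has more reads. All these effects passed the test. FDR values of these 5 genes and of *MATN2* ranged up to 0.00022. Without 1 of the siNC-IFN libraries, *MATN2* under siNC stayed just below a fold change of 1.5 at an FDR of 0.000186, and without 1 of the siPDL1-1-IFN libraries so did *HAS2* under siPDL1-1, at an FDR of 0.000958.

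*ALDH3A1*, an aldehyde dehydrogenase, fell with siNC by 1.01 ± 0.10 (SE, log2; FDR = 1.3e-06) and with siPDL1-1 by 0.67 ± 0.10 (FDR = 9.0e-05). With siPDL1-2 the change was -0.35 ± 0.10 (FDR = 0.016). The IFNγ effect with siPDL1-1 minus that with siPDL1-2 was -0.32 (FDR = 0.11), which was not called. *ALDH3A1* had 3.90 and 2.99 CPM in siNC-IFN, 8.26 and 7.81 in siPDL1-1-IFN, and 11.6 and 11.2 in siPDL1-2-IFN. *MCAM*, the adhesion molecule CD146, and *PCDHGC3* fell with siNC and with siPDL1-2, with log2 fold changes of -0.85 and -0.80 for *MCAM* and -0.87 and -0.76 for *PCDHGC3*. With siPDL1-1 their changes were -0.58 and -0.53, below the fold change a call required. *MCAM* lies over *CBL* on the opposite strand, which has more reads, so the counts of *MCAM* are uncertain here and below.

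**Figure D3:**
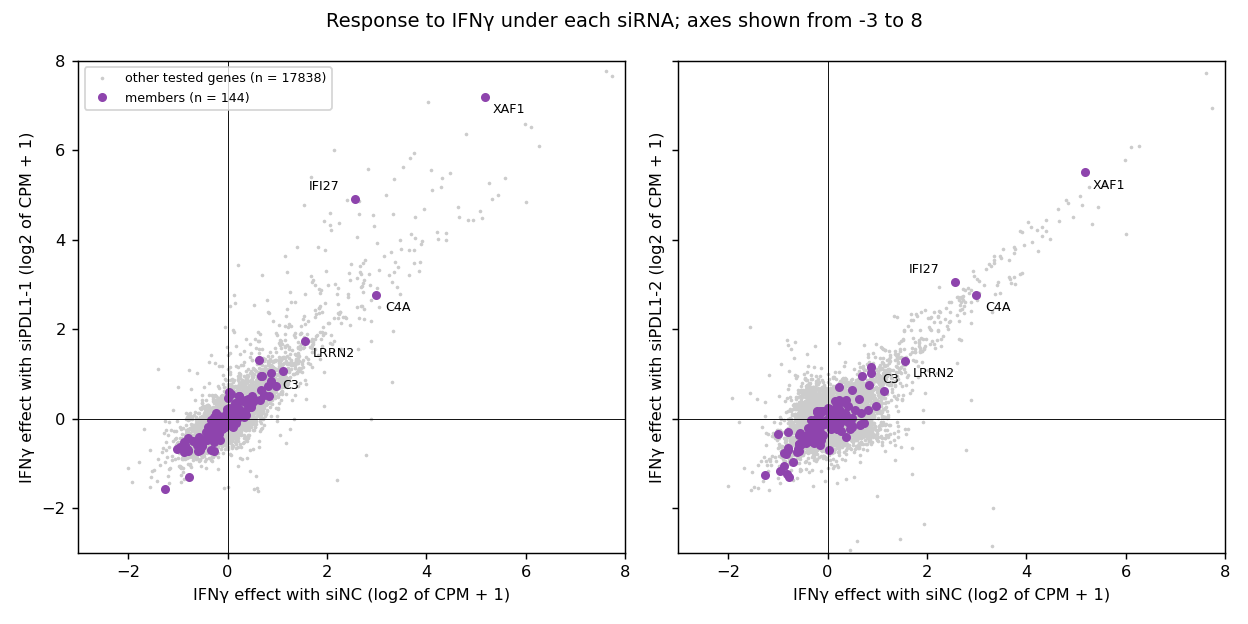
IFNγ effect under siNC (horizontal axis) against that under siPDL1-1 (left) or siPDL1-2 (right), as log2 of CPM + 1, for the 144 genes (purple) and the other tested genes (grey) that lie within the axes. Most of the 144 lie near 0, and *IFI27* has a larger effect with siPDL1-1 than with siPDL1-2.

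The genes that rose with IFNγ under all 3 siRNAs were *C3*, *C4A*, *LRRN2*, *ACP5*, *RAB23*, *ACE*, *XAF1* and *IFI27*. *C3*, the central complement component, had 21.5 and 22.6 CPM in siNC-C and 42.0 and 40.9 in siNC-IFN. With the *PD-L1* siRNAs it had 35.6 to 42.5 CPM before and 81.3 to 88.8 after IFNγ, so that unstimulated libraries with a *PD-L1* siRNA reached about the level of siNC-IFN. Its IFNγ effects were 0.88, 1.03 and 1.17 (log2), with FDR values of 4.0e-09, 4.8e-10 and 1.4e-10. *C4A*, another complement gene with a near-identical neighbour that makes its counts uncertain, had 2.60 and 2.18 CPM in siNC-C against 4.88 to 5.79, and 24.0 and 28.1 in siNC-IFN against 36.9 to 46.6. Its IFNγ effects of 2.99, 2.77 and 2.78 (SE 0.11 each) were close to one another. *LRRN2*, a leucine-rich repeat neuronal protein, had 0.392 and 0.202 CPM in siNC-C and 2.96 and 2.70 in siNC-IFN, and *RAB23*, a small GTPase of the Hedgehog pathway, rose by 1.13, 1.07 and 0.63.

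*IFI27* and *XAF1* belong to the type I interferon response. Of 40 tested genes on that list, 36, 37 and 35 rose with IFNγ under siNC, siPDL1-1 and siPDL1-2, and in the mean of the *PD-L1* siRNAs against siNC 7 were called higher in unstimulated cells and 29 after IFNγ, with a median of 1.09 (log2) after IFNγ. The median IFNγ effect over the list was 2.32 with siNC, 4.36 with siPDL1-1 and 2.27 with siPDL1-2. *IFI27* had 0.637 and 0.481 CPM in siNC-C, 2.41 and 1.95 in siPDL1-1-C, and 0.839 and 1.01 in siPDL1-2-C. After IFNγ it had 8.84 and 7.72 CPM with siNC, 102 and 86.4 with siPDL1-1, and 15.1 and 14.9 with siPDL1-2. All groups were apart, and the siPDL1-1-IFN libraries stood far above the others. *XAF1*, a pro-apoptotic binding partner of XIAP, had 36.1 and 36.5 CPM in siNC-IFN, 169 and 168 in siPDL1-1-IFN, and 50.8 and 49.2 in siPDL1-2-IFN. In unstimulated cells it had 1 and 0 reads in the siNC libraries and between 4 and 6 in each *PD-L1* siRNA library, so its place in the set rests on 1 read against 21, and no ratio to siNC in unstimulated cells and no IFNγ fold change under a single siRNA is given.

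The promoter of *IFI27* is shown because this gene rose with IFNγ under each siRNA and differed between both *PD-L1* siRNAs in both states. It is chr14:94110486-94110785 of GRCh38.p14, plus strand, from RefSeq, 250 bases before to 50 after the start. Capitals mark 1 match to the GAS letters TTCNNNGAA and matches to the ISRE core GAAANNGAA on both strands, which overlap it. Of 12208 tested genes with a promoter sequence, 6.37% held the former and 6.602% the latter.
IFI27: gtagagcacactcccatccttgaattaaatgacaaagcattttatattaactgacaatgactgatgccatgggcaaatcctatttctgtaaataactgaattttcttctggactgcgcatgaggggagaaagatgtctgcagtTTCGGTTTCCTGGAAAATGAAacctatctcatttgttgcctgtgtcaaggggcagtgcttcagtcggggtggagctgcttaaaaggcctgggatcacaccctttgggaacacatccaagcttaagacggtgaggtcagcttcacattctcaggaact

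Promoter sequences were matched for 98 of the 144 genes, which is under 80%, so a comparison of promoter composition over the set is void and is not given.

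The difference between siPDL1-1 and siPDL1-2 was also tested, although a gene had to be high with both to be chosen. In unstimulated cells, 3 of the 144 were higher with siPDL1-1, beside 0.884% of all tested genes, and none was lower, beside 3.47%. After IFNγ, 9 were higher with siPDL1-1, beside 1.79%, and none was lower, beside 0.439%. With the fold change limit left out, FDR values under 0.01 were found for 36 of the 144 in the first state, beside 24.1% of all tested genes, and for 23 in the second, beside 10.5%. No call was made in either state for 134 of the 144, which also held for 93.9% of all tested genes.

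*PALD1*, the phosphatase-domain protein paladin, had the steadiest difference. It had 7.59 and 8.30 CPM in siNC-C, 25.7 and 25.3 in siPDL1-1-C, and 12.0 and 11.8 in siPDL1-2-C. After IFNγ it had 7.32 and 6.62 CPM with siNC, 27.2 and 26.2 with siPDL1-1, and 12.0 and 13.3 with siPDL1-2. The difference between the siRNAs was 1.041 ± 0.08 (SE, log2) in unstimulated cells (FDR = 4.9e-07) and 1.02 ± 0.08 after IFNγ (FDR = 3.9e-07), and IFNγ itself changed *PALD1* by at most 0.17 in size under any siRNA, with no call.

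*IFI27* was higher with siPDL1-1 by 0.72 ± 0.11 (SE, log2) in unstimulated cells (FDR = 0.00021) and by 2.57 ± 0.11 after IFNγ (FDR = 4.1e-10). *XAF1* was higher by 1.73 ± 0.08 after IFNγ (FDR = 1.0e-09). On the type I interferon list, 37 of 40 genes were higher with siPDL1-1 after IFNγ, with a median of 2.31 (log2) beside -0.0014 over all tested genes. *DISP2*, related to the Hedgehog release factor Dispatched, was called higher in unstimulated cells, by 0.68 ± 0.15 (FDR = 0.0031). That call was lost without either siPDL1-1-C library, without siPDL1-2-C replicate 1, and with no filter on low reads, at FDR values up to 0.0424.

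After IFNγ, *GABRP* was higher with siPDL1-1 by 0.84 ± 0.11 (SE, log2; FDR = 6.7e-05) and *ATP1B2* by 0.83 ± 0.08 (FDR = 5.1e-06). *ATP1B2* had 19.7 and 19.6 CPM in siPDL1-1-IFN, 11.0 and 10.2 in siPDL1-2-IFN, and 7.85 and 6.95 in siNC-IFN. *MCAM*, *PTK2B*, a kinase related to FAK, *CYP1B1*, a cytochrome P450, and *PODNL1*, a leucine-rich repeat protein of the matrix, were higher by 0.70, 0.72, 0.66 and 0.66 (log2), with FDR values of 1.0e-06, 8.8e-05, 0.0016 and 0.0017.

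**Figure D4:**
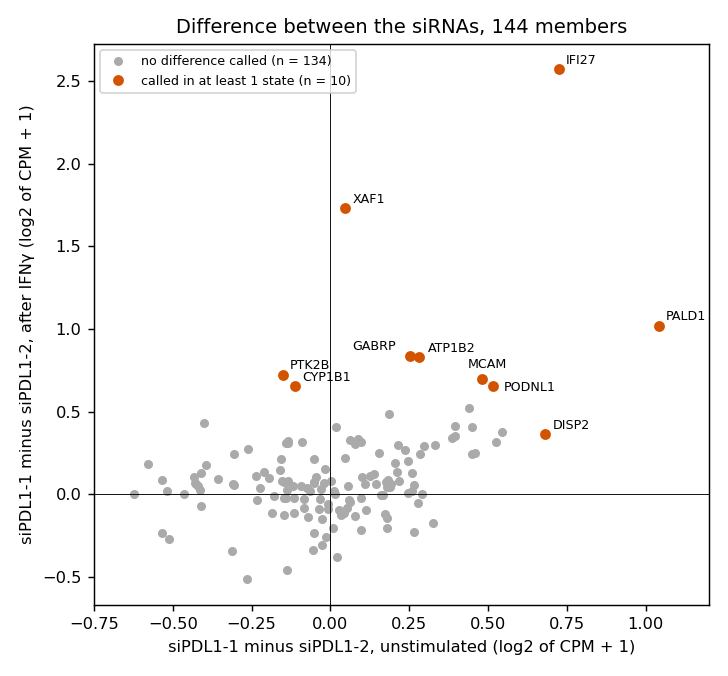
Difference between siPDL1-1 and siPDL1-2 (log2 of CPM + 1) in unstimulated cells (horizontal axis) and after IFNγ (vertical axis) for the 144 genes; the 10 genes called in at least 1 state are named. All 10 are higher with siPDL1-1, *PALD1* in both states by about the same amount and *IFI27* by 0.72 and 2.57.

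The IFNγ effect itself differed between the siRNAs for 7 of the 144 genes, all with the more positive effect under siPDL1-1, beside 4.32% of all tested genes. None had the opposite sign, beside 0.551%. This contrast was added after the data were seen. The *XAF1* value rests on 4 to 6 reads in each unstimulated library, and its call was lost with edgeR and DESeq2, at FDR values up to 0.13, and that of *SC5D* without siPDL1-1-IFN replicate 2, siPDL1-2-C replicate 2 or siPDL1-2-IFN replicate 1, at FDR values up to 0.0112. The 7 genes were *IFI27*, *XAF1*, *SC5D*, *CYP1B1*, *HINT3*, *RP2* and *PTK2B*. *SC5D*, the sterol desaturase that makes 7-dehydrocholesterol, had 15.8 and 15.1 CPM in siNC-C and 25.1 and 27.4 in siNC-IFN. It had 28.7 and 28.6 CPM in siPDL1-1-C, 38.3 and 46.0 in siPDL1-1-IFN, 40.8 and 43.3 in siPDL1-2-C, and 38.4 and 40.6 in siPDL1-2-IFN. It was thus already as high in unstimulated siPDL1-2 cells as after IFNγ. *PTK2B* had 8.90 and 9.39 CPM in siPDL1-1-C and 26.7 and 22.3 in siPDL1-1-IFN, against 10.52 and 10.01 before and 15.6 and 13.3 after IFNγ with siPDL1-2.

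The 3'UTRs of the set were read next, since short complementary stretches there are where small RNAs act. Of the 144 genes, 138 had a 3'UTR in the canonical transcript of GENCODE v44. All 16384 words of 7 letters were counted on the sense strand, and 5431 of them were in at least 20 members. The word GATTAAC had the highest share relative to all genes. It was in 26 of the 138 (18.8%) and in 818 of 14408 tested genes with a 3'UTR (5.68%), a ratio of 3.32, and the next word, CCTGATC, had a ratio of 2.37. Per kilobase of 3'UTR, the word occurred 0.0987 times in the set and 0.0311 times in all genes, and the median 3'UTR was 1835 against 1303 bases long. The word was picked from the scan after these values were known and was not tested. Among the genes left out by name, it was in 3 of 8 with a 3'UTR.

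The sites of the 7 word-bearing genes among those with the widest margins or the most reads are shown with 8 bases on either side. They are read 5' to 3' on the transcript strand, in GRCh38 coordinates of the whole window, with the word in capitals. All lie in the annotated 3'UTR, from 105 to 1918 bases after the stop codon.
ENOPH1, chr4:82460252-82460274, plus strand: tatgctcaGATTAACttccatag
SLC38A3, chr3:50220271-50220293, plus strand: aaagacgcGATTAACactgtggc
GPD1L, chr3:32166610-32166632, plus strand: attcttctGATTAACagacactt
TK2, chr16:66510039-66510061, minus strand: tgccagtaGATTAACgtgttttt
ERMAP, chr1:42844901-42844923, plus strand: atacataaGATTAACtatcacag
PLS3, chrX:115649673-115649695, plus strand: ttcattttGATTAACaggactag
MAP1B (first site), chr5:72206080-72206102, plus strand: tctgagtcGATTAACctgcatgc
MAP1B (second site), chr5:72207145-72207167, plus strand: cagatcatGATTAACactgacat

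Over all 31 sites of the set, the base after the word was A in 17. The siRNA sequences are not given in the sources used here, so the word could not be set beside either guide.

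The 26 genes with the word and the 112 without it are set side by side here. The ratio to siNC was larger in unstimulated cells than after IFNγ for 22 of the 26, with medians of 1.91 and 1.60, against 52 of the 112, with medians of 1.77 and 1.82. In unstimulated cells siPDL1-2 gave the higher value more often, with a median difference of -0.13 (siPDL1-1 minus siPDL1-2, log2) against 0.06. The median IFNγ effect of the 26 was 0.19 with siNC, 0.10 with siPDL1-1 and -0.13 with siPDL1-2, against -0.15, -0.11 and -0.07 for the 112. These are descriptions of genes picked with the same libraries and were not tested. The values compared also share the unstimulated libraries, so they are not separate observations.

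The same directions were seen in the 792 word-bearing genes outside the set. Their IFNγ effect had a median of 0.15 with siNC, 0.09 with siPDL1-1 and -0.09 with siPDL1-2, and in unstimulated cells 10.6% of them were called lower with siPDL1-1 than with siPDL1-2, against 3.64% of the 13590 genes without the word. In the mean of the *PD-L1* siRNAs against siNC, 7.95% of the 792 were called higher in unstimulated cells and 0.126% lower, against 2.24% and 0.890% without the word. After IFNγ these shares were 2.02% and 1.26%, against 2.77% and 1.28%. These directions are not separate observations. The siNC-C libraries enter both the IFNγ effect with siNC and the unstimulated contrast with siNC, with the same sign. The siPDL1-2-C libraries do so for the IFNγ effect with siPDL1-2 and the unstimulated difference between the siRNAs. For the 792, the median of siPDL1-1 minus siPDL1-2 was -0.16 (log2) in unstimulated cells and 0.02 after IFNγ. The median contrast with siNC was 0.14 and -0.0049 in the same order. The 13590 still include the 112 members without the word, of which 90 were called higher in each state. The 792 include no member, so the shares called higher are not like for like. Word-bearing genes also had long and AT-rich 3'UTRs, with a median of 3493 bases and 37.6% GC over the 818, against 1212 bases and 42.9% GC over the 13590 without it, and the part of length and composition in these values was not tested.

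**Figure D5:**
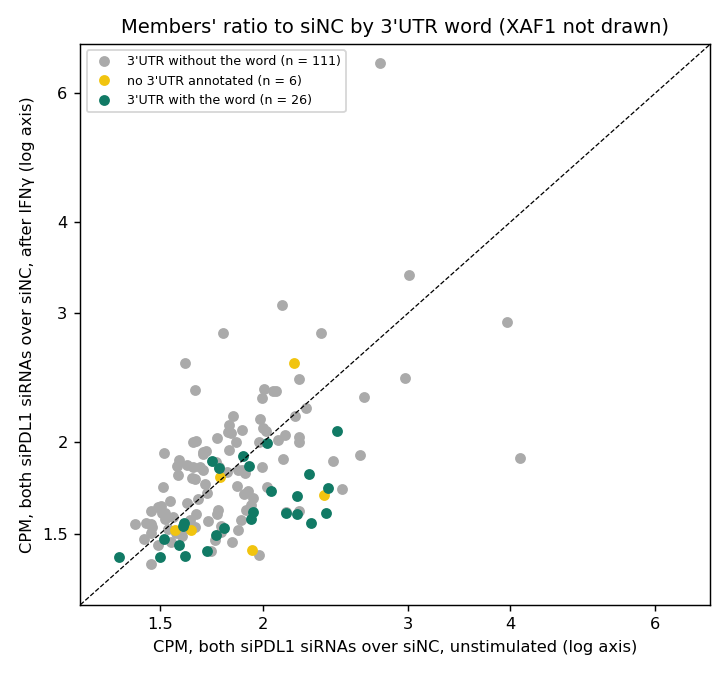
Mean CPM with both *PD-L1* siRNAs over siNC in unstimulated cells (horizontal axis) and after IFNγ (vertical axis), both logarithmic, for the members by 3'UTR word; the dashed line marks equal ratios and *XAF1* is not drawn. Of the 26 genes with the word (green), 22 lie below the line.

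Among the word-bearing genes, *RAP1B*, a small GTPase of integrin activation, had 41.9 and 38.4 CPM in siNC-C, 75.04 and 76.4 in siPDL1-1-C, and 98.0 and 104 in siPDL1-2-C. After IFNγ it had 71.3 and 72.1 CPM with siNC, 118 and 136 with siPDL1-1, and 118 and 113 with siPDL1-2. It rose with IFNγ under siNC by 0.82 (log2, FDR = 9.8e-08) and under siPDL1-1 by 0.73 (FDR = 3.4e-07), while under siPDL1-2 the change was 0.19 (FDR = 0.036). The difference in IFNγ effect between siPDL1-1 and siPDL1-2 was not called for *RAP1B*. *IFNAR1*, a subunit of the type I interferon receptor, had 23.9 and 23.3 CPM in siNC-C, 34.2 and 34.5 in siPDL1-1-C, and 48.4 and 44.3 in siPDL1-2-C. After IFNγ it had 33.7 and 33.3 CPM with siNC and 45.7 to 49.9 with the *PD-L1* siRNAs, with no difference called between them. *RDX*, the membrane-cytoskeleton linker radixin, and *MAN2A1*, a Golgi mannosidase, had the same order in unstimulated cells, with 49.6 and 49.98 CPM (siNC), 96.5 and 93.2 (siPDL1-1) and 116 and 119 (siPDL1-2) for *RDX*.

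By annotation, 139 of the 144 were protein-coding, 4 were long noncoding RNAs and 1 was a transcribed unitary pseudogene, *LRRC29*. Of all tested genes, 80.5% were protein-coding and 18.8% long noncoding RNAs. Those shares include genes under the 2 CPM that the rule required, so the counts are not read as few or many. The noncoding RNAs of the set were *OIP5-AS1*, *HHLA3*, AC092683.1 and AL645608.2. *OIP5-AS1* had 63.9 and 62.8 CPM in siNC-C, 100.3 and 101 in siPDL1-1-C, and 147 and 143 in siPDL1-2-C. The genes lay on every chromosome but 18 and Y, with at most 11 on any one.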

How the data were processed

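RNA-seq of U251 cells covered 12 libraries, 2 for each combination of siNC, siPDL1-1 or siPDL1-2 with or without IFNγ, in groups named by the labels. Before deposition, the authors aligned reads to GRCh38 (Ensembl genes) with CLC Genomics Workbench, without using the strand in counting. The deposited signal values are the authors' scaled CPM, 1 column per library, and their sums differ between libraries (0.965 to 1.042 times that of plain CPM). At least 99.9956% of a library's values came out as whole reads (within 0.02 reads), which were recovered.

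The 144 genes were found by the rule given above. The genes, lists and families were chosen with earlier results of these data known. Named genes are the 12 with the widest margin, the 8 with the most reads, the 3 called members with the largest and the 3 with the smallest change per comparison, members on a list, and those beside the limit; others were chosen after their values were seen. Some genes that this rule names are not reported here.

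All 12 libraries were fitted as 6 groups with limma 3.58.1 (trend and robust) on log2(CPM + 1) over 17982 genes that passed filterByExpr on recovered reads (minimum count 10, total 15), with Benjamini-Hochberg adjustment over all of them. Fold changes on this scale understate the change of low genes. Alternatives were edgeR 4.0.16 quasi-likelihood and DESeq2 1.42.0 Wald tests on recovered reads, DESeq2 size factors, no filter, a pseudocount of 0.1, other thresholds, replicate number as a covariate, and leaving out each library. Replicate numbers were not taken as pairs. 3'UTRs are from GENCODE v44 and promoters from RefSeq (GRCh38.p14). R 4.3.3 and Python 3.11.15 were used.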

Additional observations from a re-analysis of the deposited data

Results flagged for a closer look

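For 3 genes named above, the response to IFNγ differed between the siRNAs by a test of that difference. The IFNγ effect with siPDL1-1 minus that with siPDL1-2 was 1.85 (log2, FDR = 2.65e-06) for *IFI27*. It was 1.69 (FDR = 1.8e-07) for *XAF1*, which had between 4 and 6 reads in each unstimulated library of these siRNAs, and this call was lost with edgeR and DESeq2, at FDR values up to 0.13. It was 0.62 (FDR = 0.00128) for *SC5D*, a call lost without siPDL1-1-IFN replicate 2, siPDL1-2-C replicate 2 or siPDL1-2-IFN replicate 1, at FDR values up to 0.0112.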

How the results depend on the processing

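With FDR < 0.01 and no fold change limit, the members called for the IFNγ effect went from 30 to 70 (siNC), from 27 to 73 (siPDL1-1) and from 26 to 55 (siPDL1-2), those for the difference between the siRNAs from 3 to 36 (unstimulated) and from 9 to 23 (after IFNγ), and those for the difference in IFNγ effect from 7 to 20. Of all tested genes, 27.3%, 22.9%, 17.1%, 24.1%, 10.5% and 11.7% were called at that setting in the same order. Over the whole table, genes called in the mean of both siRNAs against siNC went from 568 to 4321 (unstimulated) and from 636 to 4492 (after IFNγ) with that setting. A pseudocount of 0.1 gave 869 in place of 568, and 6 members in place of 3 for the unstimulated difference between the siRNAs, for which edgeR's quasi-likelihood test also gave 6. Over the whole table edgeR called 801 genes unstimulated and 950 after IFNγ. Leaving out each library gave 2 to 5 members for that difference (5 without siPDL1-1-C replicate 2) and 3 to 15 for the difference in IFNγ effect (15 without siPDL1-1-IFN replicate 1 and 3 without replicate 2). The set held 42 genes at a margin of 1.5 times and 278 at 1.2 times, 159 in plain CPM, 132 with size factors, and 144 to 184 when 1 library was left out. The replicate block left 30, 27, 26, 3, 9 and 7 members called in the same order. For each group, the log2 difference between replicates 1 and 2 was taken for every gene. These differences correlated between groups at -0.23 to 0.29, so the numbers were not taken as pairs. Such correlations cannot exclude that libraries with the same number share an experiment. Over the single named genes, 2098 of 2160 values stayed on the same side of the threshold under the other settings, 58 passed it newly, 4 lost it and 0 reversed. Without 1 library, 3216 of 3240 stayed, 9 passed it newly, 15 lost it and 0 reversed. Depth limits the genes with few reads: 33 of the 144 averaged under 5 CPM.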
